A study of Mus musculus with 6 samples.

Results

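The CC chemokine ligands described here are 10 genes, Ccl2, Ccl3, Ccl4, Ccl5, Ccl6, Ccl7, Ccl8, Ccl9, Ccl11 and Ccl24, of 35122 genes listed in a table of RNA-seq counts from mouse adipocytes. They were selected by gene symbol, with earlier results of these data known, and the rule itself used no measured value. All 10 were listed, and 9 had counts high enough to be tested, while Ccl4 did not pass the filter on low counts. RNA came from the adipocyte fraction, the layer that floats after collagenase digestion, of epididymal fat from 6 male C57BL/6 mice on standard chow. By their labels the mice were aged 10 to 11 months, whereas the text of the study describes the sequenced animals as older. Both groups carried floxed alleles of Spi1, the gene that encodes the ETS transcription factor PU.1. The 3 control mice had the genotype PU.1 fl/fl, and the 3 aPU.1KO mice had the genotype AdipoqCre_PU.1 fl/fl, in which Cre recombinase is driven by the adiponectin promoter and so is made in adipocytes. The labels number each library separately, and by the study's methods the RNA came from 3 mice per group, or 1 mouse per library. The question was how loss of PU.1 in adipocytes alters the expression of these genes.

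CC chemokines are small secreted proteins with a pair of adjacent cysteines near the amino terminus. They bind G protein-coupled receptors on leukocytes and direct the movement of monocytes, macrophages, eosinophils, lymphocytes and other cells into tissues. In adipose tissue they are made by macrophages, progenitor cells, endothelial cells and adipocytes, and Ccl2 is the member best known there as an attractant of monocytes.

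The library totals ranged from 20550252 to 24310144 counts, apart from control 1, which had 69283842. Levels are therefore given as CPM, counts scaled to a common normalised library size. Spi1 measured 24.3, 6.35 and 26.7 CPM in control 1, 2 and 3 and 3.20, 1.22 and 4.17 CPM in aPU.1KO 1, 2 and 3, so that every aPU.1KO library lay below every control (log2 fold change -2.75, edgeR adjusted p = 0.0788). The counts are per gene and include exons of Spi1 outside the floxed one. The adipocyte genes Adipoq and Plin1 were abundant in every library, at 2448 to 3944 and 2042 to 2669 CPM, but the adipocyte fraction also held RNA of macrophage genes. Adgre1, which encodes the macrophage marker F4/80, measured 129.3, 26.2 and 115.1 CPM in the controls and 21.3, 7.96 and 15.7 CPM in the aPU.1KO libraries. The summed level of 10 macrophage markers was 1304, 428.4 and 1237 CPM in the controls and 299.8, 223.8 and 284.8 CPM in the aPU.1KO libraries. In such bulk samples, fewer cells of a type and less RNA per cell cannot be told apart.

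Ccl3, Ccl5, Ccl6, Ccl8 and Ccl9 were lower in every aPU.1KO library than in every control, Ccl4 and Ccl11 had lower means with overlapping groups, and Ccl2, Ccl7 and Ccl24 overlapped with no lower mean. None of the 9 tested ligands reached an edgeR adjusted p under 0.05, a threshold that 0.18% of the 13925 genes tested passed in the lower direction. At an unadjusted edgeR p under 0.05, 6 of 9 were lower and 0 were higher, where 13.7% of all genes tested were lower and 11.9% were higher by the same rule. Groups that did not overlap, with aPU.1KO below control, were found for 5 of 9 ligands and for 15.5% of all genes tested. With DESeq2, the tool of the study's own methods, 5 of 9 were lower at an adjusted p under 0.05, where 8.73% of all genes tested were. They were Ccl6 (DESeq2 adjusted p = 1.1e-05), Ccl8 (0.00105), Ccl9 (0.00545), Ccl3 (0.0173) and Ccl5 (0.0283), with Ccl11 at 0.0574. The median log2 fold change was -1.52 over the 9 ligands and 0.01 over all genes tested.

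**Figure D1:**
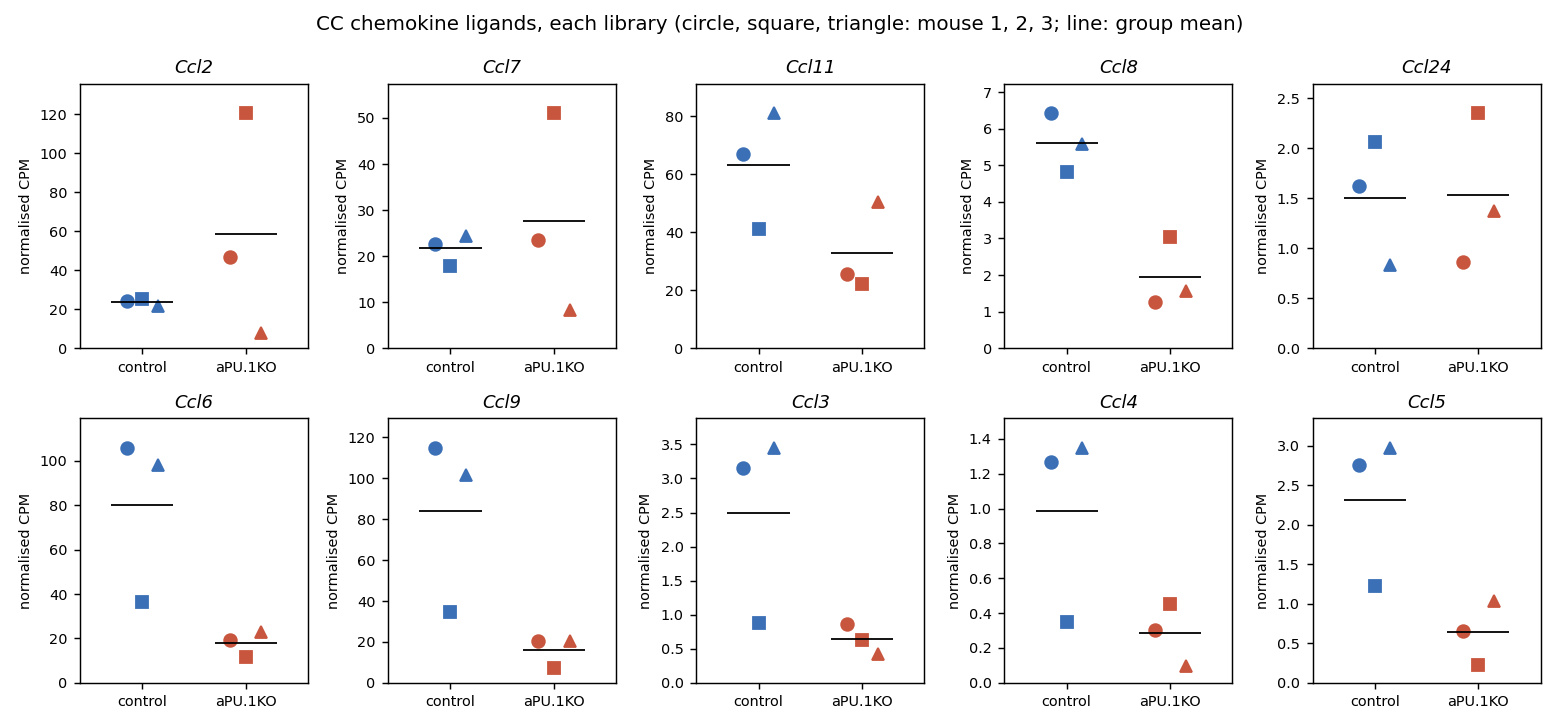
Normalised CPM (vertical axes, each from 0) of the 10 CC chemokine ligands in the 3 control and 3 aPU.1KO libraries; circles, squares and triangles are mice 1, 2 and 3 of a group and the line is the group mean. Ccl3, Ccl5, Ccl6, Ccl8 and Ccl9 do not overlap between groups, while Ccl2 and Ccl7 spread widely among the aPU.1KO libraries, from 7.96 to 120.6 and from 8.38 to 51.1 CPM.

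Of the 5 ligands whose groups did not overlap, those with the highest control means per kilobase of exon were Ccl6 and Ccl9 (44.7 and 27.5 CPM per kilobase), neighbouring genes of the rodent-expanded branch of the family whose products bind the receptor Ccr1. Ccl6 (ENSMUSG00000018927; chr11:83587882-83593087, minus strand, GRCm38) measured 105.9, 36.5 and 98.3 CPM in control 1, 2 and 3 and 19.1, 11.8 and 22.9 CPM in aPU.1KO 1, 2 and 3. The groups did not overlap, and control 2 was well below the other controls. Control libraries averaged 80.2 ± 38.1 CPM against 18.0 ± 5.63 CPM in aPU.1KO (SD, n = 3 mice each), and the log2 fold change was -2.16 (SE 0.44, 95% interval -3.20 to -1.13, edgeR adjusted p = 0.0764).

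Ccl9 (ENSMUSG00000019122; chr11:83572919-83578636, minus strand) measured 114.9, 34.6 and 101.8 CPM in the controls and 20.6, 7.46 and 20.6 CPM in the aPU.1KO libraries. As for Ccl6, control 2 was the lowest control and aPU.1KO 2 the lowest library. Its log2 fold change was -2.37 (SE 0.55, 95% interval -3.67 to -1.07, edgeR adjusted p = 0.0786), the lowest of the 9. The ratio of Ccl9 to Ccl6 counts within a library stayed between 0.899 and 1.09 in 5 libraries and was 0.630 in aPU.1KO 2.

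Ccl3 and Ccl4 encode the macrophage inflammatory proteins MIP-1α and MIP-1β, attractants of macrophages and lymphocytes. Both were at a few CPM or less. Ccl3 (ENSMUSG00000000982; chr11:83647844-83649355, minus strand) measured 3.15, 0.876 and 3.45 CPM in the controls and 0.864, 0.633 and 0.426 CPM in the aPU.1KO libraries. Control 2 lay only just above aPU.1KO 1. The log2 fold change of Ccl3 was -1.97 (SE 0.56, 95% interval -3.32 to -0.63, edgeR adjusted p = 0.103). Ccl4 (ENSMUSG00000018930; chr11:83662584-83664683, plus strand) had 92, 8 and 34 counts in the controls and 6, 10 and 2 counts in the aPU.1KO libraries, or 1.27, 0.350 and 1.35 against 0.305, 0.452 and 0.0947 CPM. Control 2 lay among the aPU.1KO libraries, and its 8 counts have an exact Poisson 95% interval of 3.45 to 15.8, which covers counting error only. Without the filter on low counts, Ccl4 had a log2 fold change of -1.83 (SE 0.67, 95% interval -3.36 to -0.30, edgeR adjusted p = 0.178). Its neighbour Ccl3 had 2.49, 2.50 and 2.56 times its count in the controls and 2.83, 1.40 and 4.50 times in the aPU.1KO libraries, where counts of both genes were at most 17.

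Ccl5, also known as RANTES, attracts T cells and monocytes through Ccr1 and other receptors. Ccl5 (ENSMUSG00000035042; chr11:83525778-83530518, minus strand) measured 2.75, 1.23 and 2.97 CPM in the controls and 0.661, 0.226 and 1.04 CPM in the aPU.1KO libraries. The groups did not overlap, with control 2 close to aPU.1KO 3. edgeR gave a log2 fold change of -1.86 (SE 0.57, 95% interval -3.21 to -0.51, adjusted p = 0.113).

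Ccl8, or MCP-2, lies with Ccl2, Ccl7 and Ccl11 in the other block of ligand genes on chromosome 11. Ccl8 (ENSMUSG00000009185; chr11:82115185-82116799, plus strand) measured 6.43, 4.82 and 5.59 CPM in the controls and 1.27, 3.03 and 1.56 CPM in the aPU.1KO libraries. Of the 5 ligands whose groups did not overlap it had the most even controls, and control 2 was not set apart from the others. Mean levels were 5.61 ± 0.808 CPM for control mice against 1.95 ± 0.942 CPM for aPU.1KO mice (SD, n = 3 mice each). This gave a log2 fold change of -1.52 (SE 0.34, 95% interval -2.33 to -0.71, edgeR adjusted p = 0.0786).

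Ccl11, or eotaxin, attracts eosinophils through Ccr3 and is made by fibroblast-like and other stromal cells. Ccl11 (ENSMUSG00000020676; chr11:82057823-82062955, plus strand) measured 67.1, 40.9 and 81.1 CPM in the controls and 25.7, 22.1 and 50.3 CPM in the aPU.1KO libraries. aPU.1KO 3 lay above control 2, so the groups overlapped. A log2 fold change of -0.95 (SE 0.37, 95% interval -1.82 to -0.08, edgeR unadjusted p = 0.0372, adjusted p = 0.169) was obtained, and it was -0.74 to -1.40 when each library in turn was left out, with an unadjusted p over 0.05 in 4 of those 6 fits.

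Ccl2 and Ccl7 encode the monocyte chemoattractants MCP-1 and MCP-3, which act on Ccr2. Ccl2 (ENSMUSG00000035385; chr11:82035571-82037453, plus strand) measured 24.1, 25.3 and 21.7 CPM in the controls and 46.6, 120.6 and 7.96 CPM in the aPU.1KO libraries. The controls were tightly grouped, 2 aPU.1KO libraries lay above all of them and 1 lay below all of them. Control libraries averaged 23.7 ± 1.84 CPM and aPU.1KO libraries 58.4 ± 57.2 CPM (SD, n = 3 mice each). The log2 fold change of 1.30 (SE 0.79, 95% interval -0.57 to 3.17) did not pass the test (edgeR adjusted p = 0.339). It was 0.20 without aPU.1KO 2 and 1.82 without aPU.1KO 3 (edgeR adjusted p = 0.874 and 0.082).

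Ccl7 (ENSMUSG00000035373; chr11:82045712-82047525, plus strand) measured 22.7, 17.9 and 24.4 CPM in the controls and 23.6, 51.1 and 8.38 CPM in the aPU.1KO libraries. Its order among the aPU.1KO libraries was that of Ccl2, with aPU.1KO 2 highest and aPU.1KO 3 lowest. The log2 fold change was 0.35 (SE 0.56, 95% interval -0.97 to 1.68, edgeR adjusted p = 0.723), and without aPU.1KO 2 it was -0.45. Ccl2 had 0.888 to 1.41 times the counts of Ccl7 in the controls, 1.98 and 2.36 times in aPU.1KO 1 and 2, and 0.949 times in aPU.1KO 3.

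Ccl24, or eotaxin-2, is the member outside chromosome 11 and another ligand of Ccr3. Ccl24 (ENSMUSG00000004814; chr5:135569937-135573049, minus strand) measured 1.63, 2.06 and 0.833 CPM in the controls and 0.864, 2.35 and 1.37 CPM in the aPU.1KO libraries. The groups covered the same range, with means of 1.51 ± 0.621 and 1.53 ± 0.755 CPM (SD, n = 3 mice each). The log2 fold change was 0.03 (SE 0.47), and its 95% interval of -1.09 to 1.14 leaves room for a change of either sign (edgeR adjusted p = 0.976).

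**Figure D2:**
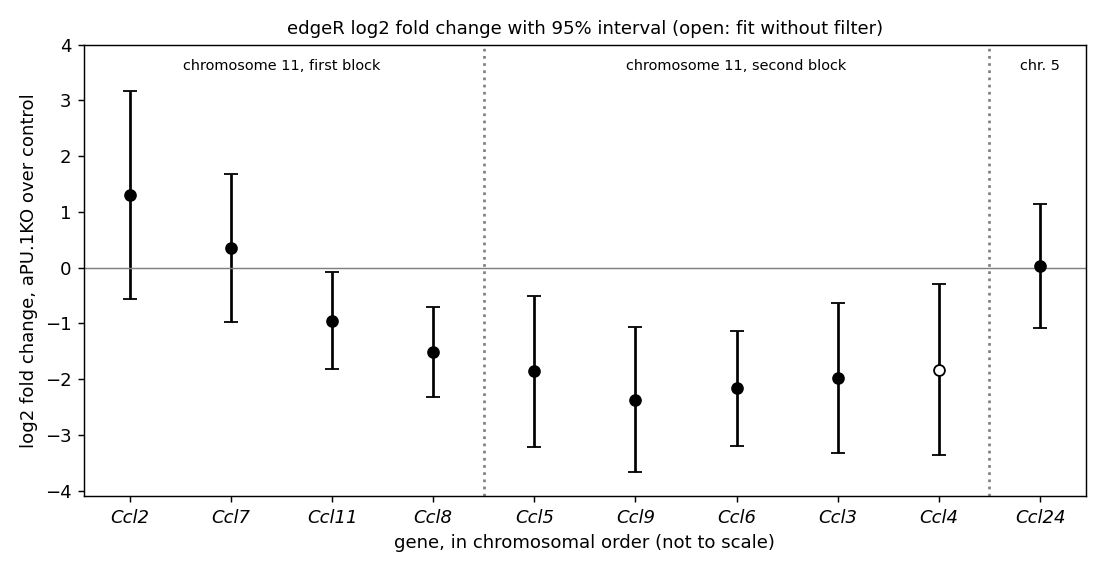
Log2 fold change of aPU.1KO over control (vertical axis) with its 95% interval for the 10 ligands in chromosomal order (horizontal axis, not to scale); filled points are from the edgeR fit and the open point, Ccl4, is from the fit without a filter on low counts. The intervals of Ccl2, Ccl7 and Ccl24 span 0, and those of the other 7 lie below it.

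Set in chromosomal order, the 9 ligand genes on chromosome 11 form a block with Ccl2, Ccl7, Ccl11 and Ccl8 and a block with Ccl5, Ccl9, Ccl6, Ccl3 and Ccl4. In the second block, the log2 fold changes lay between -2.37 and -1.83, Ccl4 included. In the first block they ran from 1.30 for Ccl2 at one end to -1.52 for Ccl8 at the other. No exon of a member overlapped an exon of another annotated gene. By BLAST of the transcripts, the highest identity was that of Ccl2 and Ccl7, 72.5% over 236 bases, or 21.5% of the Ccl2 transcript. Ccl8 and Ccl12 were 70.2% identical over 339 bases, or 66.3% of the Ccl8 transcript. No member had a near-identical copy among the CC ligands. The Ccl9 transcript alone shared stretches of 142 to 194 of its 3006 bases with at least 312 other genes at 90% identity or more. The search kept a limited number of matching transcripts, so the gene number and the lengths describe only those kept.

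RefSeq promoter sequences (GRCm38.p6) were at hand for 4 of the members, Ccl3, Ccl6, Ccl8 and Ccl9, and not for the others. These 4 are shown because they were those at hand, and the groups of all 4 genes, as of Ccl5, did not overlap. No ligand with overlapping groups could be set beside them. PU.1 binds purine-rich DNA with a GGAA core. The 250 bases before each annotated start were searched on both strands for GAGGAAGT, the consensus of PU.1, and for the 3 overlapping windows of 6 letters within it, which are GAGGAA and AGGAAG and also GGAAGT. Each sequence is written 5′ to 3′ on the strand of its gene, and capitals mark matches to the windows, all of which lay on the opposite strand.
Ccl6 (chr11:83593088-83593337, minus strand): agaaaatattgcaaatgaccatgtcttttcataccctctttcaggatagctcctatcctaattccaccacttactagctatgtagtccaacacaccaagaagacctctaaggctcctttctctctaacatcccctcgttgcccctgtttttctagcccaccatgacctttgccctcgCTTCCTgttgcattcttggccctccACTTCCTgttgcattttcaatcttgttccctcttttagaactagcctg
Ccl9 (chr11:83578637-83578886, minus strand): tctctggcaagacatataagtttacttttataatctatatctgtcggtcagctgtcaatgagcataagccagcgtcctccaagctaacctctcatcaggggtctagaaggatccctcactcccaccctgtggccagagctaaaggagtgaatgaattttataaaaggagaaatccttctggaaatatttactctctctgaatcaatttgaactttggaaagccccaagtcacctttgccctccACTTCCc
Ccl3 (chr11:83649379-83649628, minus strand): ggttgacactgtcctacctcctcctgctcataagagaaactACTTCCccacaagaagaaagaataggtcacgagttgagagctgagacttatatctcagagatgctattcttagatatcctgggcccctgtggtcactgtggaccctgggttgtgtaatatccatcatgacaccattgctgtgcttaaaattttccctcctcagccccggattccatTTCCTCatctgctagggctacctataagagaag
Ccl8 (chr11:82114935-82115184, plus strand): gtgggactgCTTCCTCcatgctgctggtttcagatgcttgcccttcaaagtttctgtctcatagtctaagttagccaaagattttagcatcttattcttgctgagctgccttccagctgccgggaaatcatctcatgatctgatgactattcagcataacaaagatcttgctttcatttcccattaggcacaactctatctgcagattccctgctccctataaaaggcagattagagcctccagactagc

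None of the 4 promoters held the full GAGGAAGT, which was present in 2.44% of 32851 RefSeq promoters searched over the same length. Each held at least 1 window, as did 47.2% of all promoters. In Ccl6, a match to AGGAAG lay 68 to 73 bases before the start, and a match to AGGAAG overlapping one to GGAAGT lay 42 to 48 bases before it. In Ccl9 the match to GGAAGT lay 2 to 7 bases before the start. In Ccl3 the match to GAGGAA lay 28 to 33 bases before the start and that to GGAAGT 204 to 209 bases before it. In Ccl8 overlapping matches to GAGGAA and AGGAAG lay 235 to 241 bases before the start. A match describes letters in this window only, and binding of PU.1 was not analysed here.

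Compared per length, as CPM per kilobase of exon, the most abundant ligand in each control was Ccl11, at 37.8 to 75.0. Ccl6 at 20.3 to 59.0, Ccl9 at 11.4 to 37.7 and Ccl7 at 22.4 to 30.4 followed by mean. In this order the ranges of each gene and the next overlapped, while that of Ccl11 lay above those of Ccl9 and Ccl7. Ccl2 at 19.0 to 22.2 was just below the range of Ccl7, and Ccl8 at 9.42 to 12.6 was below Ccl2 in every control. Ccl3, Ccl5, Ccl4 and Ccl24 made up a low tier between 0.531 and 4.50, and their ranges overlapped one another. In the aPU.1KO libraries the order was led by Ccl2 in aPU.1KO 1 and 2, at 41.0 and 106.0 CPM per kilobase, and by Ccl11 in aPU.1KO 3, at 46.4. The mean per kilobase was 51.3 for Ccl2, 34.6 for Ccl7 and 30.2 for Ccl11 in aPU.1KO, with overlapping ranges, and 10.0 for Ccl6 and 5.33 for Ccl9.

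As shares of the summed counts of the 10 ligands, not per length, Ccl6 made up 30.3%, 22.2% and 28.8% in the controls and 13.7%, 5.39% and 20.0% in the aPU.1KO libraries. Ccl9 made up 32.8%, 21.0% and 29.8% in the controls and 14.8%, 3.39% and 18.0% in the aPU.1KO libraries. Both shares were lower in every aPU.1KO library than in every control. The share of Ccl2 was 6.89%, 15.4% and 6.34% in the controls and 33.4%, 54.9% and 6.94% in the aPU.1KO libraries. In aPU.1KO 3, which had the least Ccl2, the largest share was that of Ccl11, at 43.8%. The 10 ligands together came to 349.9, 164.6 and 341.4 CPM in the controls and 139.6, 219.7 and 114.6 CPM in the aPU.1KO libraries. These sums overlapped, since the Ccl2 and Ccl7 of aPU.1KO 2 took it above control 2.

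**Figure D3:**
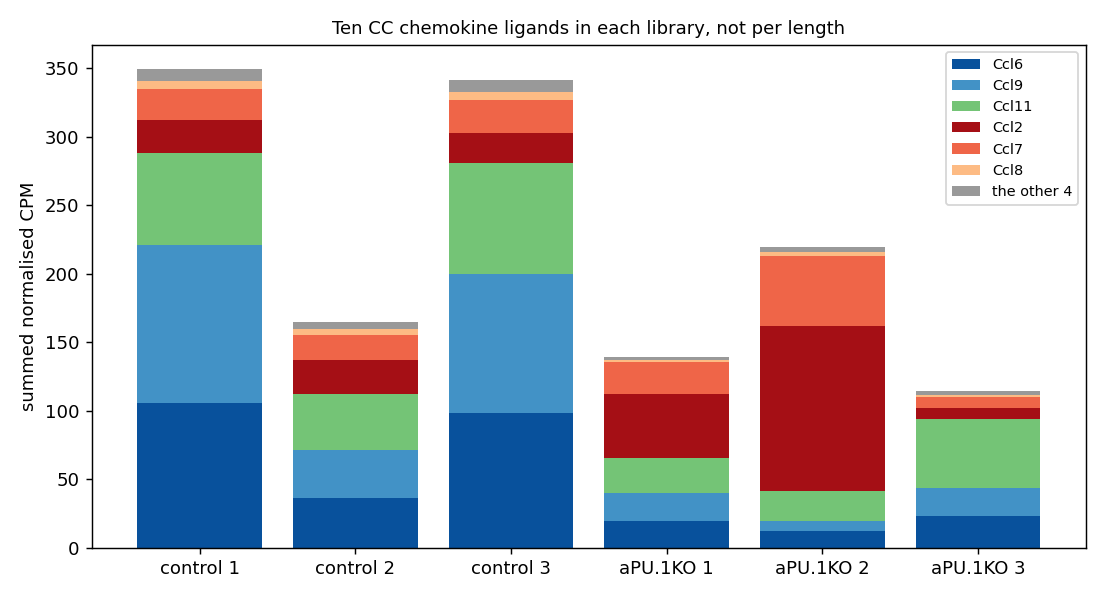
Summed normalised CPM of the 10 ligands (vertical axis) in each of the 6 libraries, with a colour for each of 6 ligands and grey for the other 4. Ccl6 and Ccl9 (blue) fill most of control 1 and 3, and Ccl2 (dark red) fills 54.9% of aPU.1KO 2.

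Cell marker levels moved with some of these ligands. Of 10 macrophage markers, 8 were lower in aPU.1KO at an unadjusted edgeR p under 0.05, with Cd163 and Mertk the exceptions, where 13.7% of all genes tested were. The summed ranges of 428.4 to 1304 CPM for control mice and of 223.8 to 299.8 CPM for aPU.1KO mice did not overlap. Control 2 was the lowest control both for this sum and for Ccl3, Ccl4, Ccl5, Ccl6, Ccl7, Ccl8, Ccl9 and Ccl11, and aPU.1KO 2 had the lowest sum together with the lowest Ccl5, Ccl6, Ccl9 and Ccl11, but with the highest Ccl4 and Ccl8 of the aPU.1KO libraries. Relative to the control mean, the macrophage sum was 0.303, 0.226 and 0.288 in the aPU.1KO libraries, Ccl6 was 0.238, 0.148 and 0.286 and Ccl9 was 0.246, 0.089 and 0.246. The adipocyte marker sum was 1.17, 1.01 and 1.12. It joins 5 markers, Adipoq, Plin1, Cidec, Pck1 and Lipe, that were higher in every aPU.1KO library than in every control with Lep, which was lower in every one. Of all genes tested, 16.7% were higher and 15.5% lower without overlap. The part of macrophage RNA in the ligand differences was not tested. The library with the lowest macrophage sum, aPU.1KO 2, had the highest Ccl2 and Ccl7, at 5.09 and 2.36 times their control means. In aPU.1KO 3, Ccl2 and Ccl7 were low together with that sum, at 0.336 and 0.387 of their control means.

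**Figure D4:**
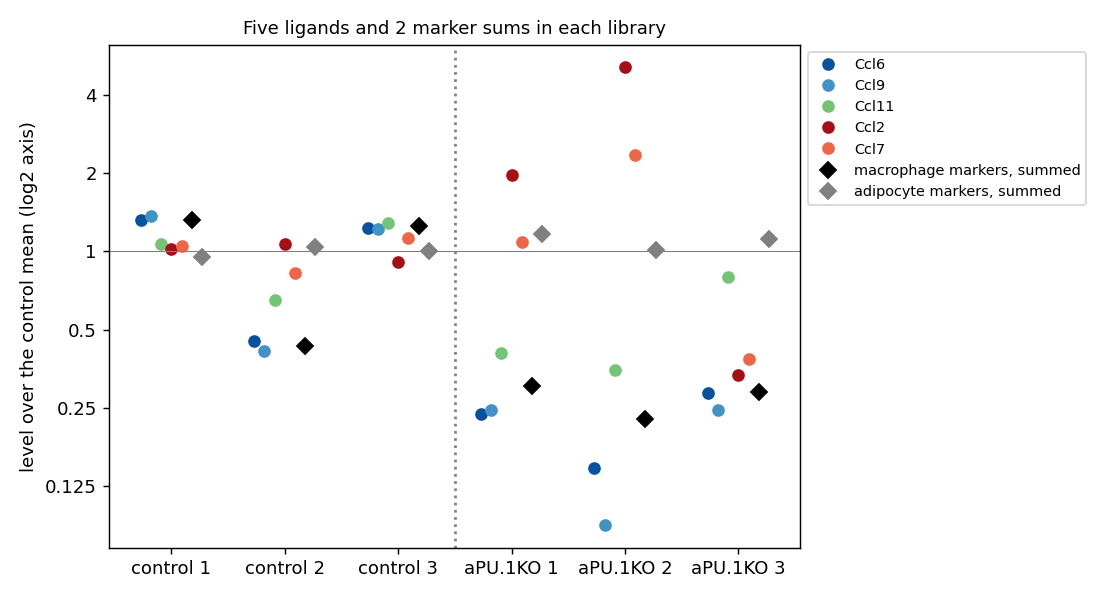
Level over the control mean (vertical axis, log2 scale) of 5 ligands (circles) and of the summed macrophage and adipocyte markers (diamonds) in each library. Ccl6 and Ccl9 lie near the macrophage sum in all 6 libraries except aPU.1KO 2, where Ccl6, Ccl9 and the sum were 0.148, 0.089 and 0.226, while Ccl2 and Ccl7 lie above it in aPU.1KO 1 and 2 and closer to it, at 0.336 and 0.387 against 0.288, in aPU.1KO 3.

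Other cell types that make or follow CC chemokines were also present at differing levels. The summed markers of progenitors and fibroblasts, cells that make Ccl11, measured 989.8, 799.8 and 905.9 CPM in the controls and 406.1, 353.7 and 734.4 CPM in the aPU.1KO libraries. The order of this sum among the aPU.1KO libraries, with aPU.1KO 3 highest and aPU.1KO 2 lowest, was also that of Ccl11. Within the list, Col1a1 (259.8, 98.9 and 504.8 CPM in aPU.1KO 1, 2 and 3) and Dpp4 had this order, whereas Dcn, Ly6a and Pi16 were highest in aPU.1KO 2 and Pdgfra was lowest in aPU.1KO 1. T cells make Ccl5, and their 4 markers summed to 2.18 to 2.30 CPM in the controls and 0.508 to 1.18 CPM in the aPU.1KO libraries, with 2 of 4 tested and both lower at an unadjusted edgeR p under 0.05, as were 13.7% of all genes tested, and neither at an adjusted p under 0.05 with DESeq2. The NK cell markers summed to 0.131 to 1.52 and 0.237 to 0.362 CPM. Markers of eosinophils, the cells drawn by Ccl11 and Ccl24, were near the limit of detection, at 0.613 to 1.59 and 0.226 to 0.332 CPM, with Epx at 0 in every library. The sums of monocyte, endothelial, mesothelial, B cell, mast cell and dendritic cell markers overlapped between groups. Of the dendritic cell markers, Zbtb46 made up most of the sum and overlapped, as did Xcr1. Flt3, too low to be tested, measured 0.510, 0.306 and 0.674 CPM in the controls and 0.102, 0.181 and 0.237 CPM in aPU.1KO. Both tested mast cell markers, Cma1 and Mcpt4, overlapped but were lower at an unadjusted edgeR p under 0.05, like 13.7% of genes tested. The neutrophil sums were 18.9 to 38.5 and 10.6 to 18.0 CPM. They were mostly S100a8, at 17.5 to 35.2 and 9.94 to 16.7 CPM, while S100a9 and Csf3r overlapped. The part of these cells in the ligand differences was not tested.

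A list of 14 CC chemokine receptors and related receptors was examined, of which 7 were tested. Not all of them bind the ligands described here. Of these, 6 were lower in aPU.1KO at an unadjusted edgeR p under 0.05 and had groups that did not overlap, 0 reached an adjusted p under 0.05 with edgeR, and 5 did with DESeq2. Over all genes tested, the shares were 13.7% lower at the unadjusted p, 15.5% without overlap and 8.73% lower with DESeq2. The receptors' median log2 fold change was -1.51. The receptor with the lowest p was Ccr1, which binds Ccl3, Ccl5, Ccl6, Ccl7 and Ccl9. Ccr1 measured 3.72, 2.23 and 2.70 CPM in the controls and 0.457, 0.181 and 0.568 CPM in the aPU.1KO libraries (log2 fold change -2.85, SE 0.43, edgeR adjusted p = 0.0718). Ccr2, the receptor of Ccl2 and Ccl7, measured 24.9, 12.0 and 21.1 CPM in the controls and 5.39, 3.98 and 11.1 CPM in the aPU.1KO libraries. Its log2 fold change was -1.51 (SE 0.43, edgeR adjusted p = 0.102), whereas its ligands Ccl2 and Ccl7 had log2 fold changes of 1.30 and 0.35. Ccr3, the eosinophil receptor of Ccl11 and Ccl24, was too low to be tested, with 86, 1 and 40 counts in the controls and 0, 0 and 2 counts in the aPU.1KO libraries.

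**Figure D5:**
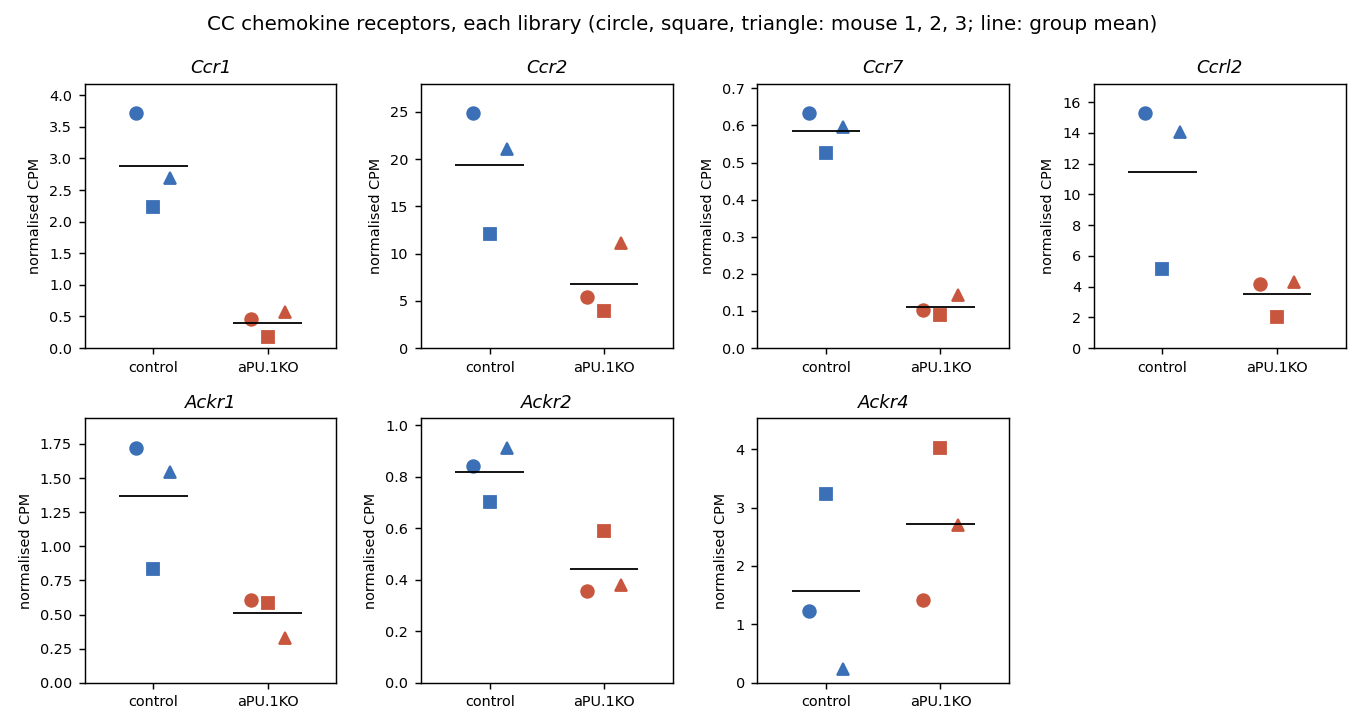
Normalised CPM (vertical axes, each from 0) of the 7 CC chemokine receptors described, in the 3 control and 3 aPU.1KO libraries; circles, squares and triangles are mice 1, 2 and 3 of a group and the line is the group mean. The groups overlap for Ackr4 and for none of the other 6 receptors shown.

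Among the remaining receptors, Ccr7, which guides dendritic cells and lymphocytes to lymph nodes, had a log2 fold change of -2.36, from 46, 12 and 15 counts in the controls and 2, 2 and 3 counts in the aPU.1KO libraries (edgeR adjusted p = 0.0722). Ccrl2, a chemerin-binding relative of these receptors, had one of -1.72 (edgeR adjusted p = 0.0971). The atypical receptors Ackr1 and Ackr2 bind inflammatory CC ligands without G protein signalling, and Ackr2 degrades them. Their log2 fold changes were -1.44 and -0.88 (edgeR adjusted p = 0.102 and 0.166). Ackr4, which binds the homeostatic ligands Ccl19 and Ccl21, overlapped between groups, at 1.23, 3.24 and 0.238 CPM in the controls and 1.42, 4.02 and 2.70 CPM in the aPU.1KO libraries. All 27 genes of a list of chemokine receptor signal transduction were tested, 17 were lower and 0 higher at an unadjusted edgeR p under 0.05, where 13.7% and 11.9% of all genes tested were. In that list 0 reached an adjusted p under 0.05 with edgeR, and 15 were lower at that threshold with DESeq2, as were 8.73% of all genes tested. The median of that list was a log2 fold change of -0.66. The 4 with the lowest p were Was, Pik3cd, Elmo1 and Dock2, which act in leukocyte actin movement and phosphoinositide signalling, with log2 fold changes of -2.17, -1.84, -0.94 and -2.54. The macrophage marker sum was lower in the same 3 libraries as the receptors, and its part in the receptor and signalling differences was not tested.

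Further ligands of the family, 11 genes, were mostly rare, and 5 were tested. Ccl19, a ligand of Ccr7, had 58, 11 and 25 counts in the controls and 0, 1 and 3 counts in the aPU.1KO libraries, where it was at or under 3 counts throughout (edgeR adjusted p = 0.0766, DESeq2 adjusted p = 0.00619). Ccl22, a ligand of Ccr4 made by macrophages and dendritic cells, measured 1.25, 0.438 and 1.27 CPM in the controls and 0.203, 0.226 and 0.379 CPM in the aPU.1KO libraries (log2 fold change -1.88, SE 0.53, edgeR adjusted p = 0.101). Ccl27a, an epithelial ligand of Ccr10, was higher in every aPU.1KO library, at 5.08, 6.28 and 4.36 CPM against 2.70, 4.03 and 2.50 CPM (log2 fold change 0.78, SE 0.25, edgeR adjusted p = 0.123). Ccl28, another ligand of Ccr10, measured 1.12, 0.904 and 1.33 CPM against 0.633, 0.744 and 0.872 CPM in the controls (log2 fold change 0.59, SE 0.30, edgeR adjusted p = 0.265). Ccl25, the ligand of Ccr9, overlapped between groups (log2 fold change 0.15, SE 0.21, edgeR adjusted p = 0.683). Ccl1 and Ccl20 had 0 counts in every library, while Ccl12, Ccl17, Ccl21a and Ccl26 had at most 30.

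Of the 6 libraries left out in turn, control 2 moved the calls most. Without it, 3 ligands reached an edgeR adjusted p under 0.05, namely Ccl3, Ccl6 and Ccl9, with log2 fold changes of -2.37, -2.52 and -2.75 (edgeR adjusted p = 0.0153, 0.00639 and 0.0163), and the number of genes called over the whole table went from 33 to 1193.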

How the data were processed

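RNA-seq was analysed for 3 control and 3 aPU.1KO mice. Per the labels and the methods of the study, the authors quantified reads with Salmon (validateMappings option, build GRCm38) and deposited estimated counts summed per gene, here whole numbers. Of 35122 identifiers, 35102 matched GENCODE M21. edgeR 4.0.16 (R 4.3.3) was run on all 6 libraries with filterByExpr, TMM factors and the quasi-likelihood test, and p-values were adjusted by the Benjamini-Hochberg method over 13925 genes. The standard error was the log2 fold change over the square root of F. Replicate numbers follow label order and were not used to pair samples. The study describes littermate controls, but the litter of each mouse was not given in the sources used here, so no pairing was modelled. The 3 libraries per group limit precision, and an exact permutation test of 3 against 3 mice cannot go below p = 0.1. The fit was first tested on simulated counts. Alternatives were DESeq2 1.42.0, limma-voom (limma 3.58.1), other scaling and filters, a thinned deepest library and each library left out. Transcripts were compared with BLAST 2.17.0. The members and lists were chosen with earlier results of these data known. Named genes were all members, Spi1, every tested receptor and further ligand, the 4 signal transduction genes of lowest p, and some defining markers. Naming of every defining marker was planned but not carried out. Cd163, Mertk, Epx and the adipocyte, progenitor, dendritic cell, mast cell and neutrophil markers were named after their values were seen. Receptors, signal transduction genes and cell markers were read from the same fit. One item of the receptor list is not reported here, and counts over that list leave it out. Strandedness of the counting was not given in the sources used here.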

Additional observations from a re-analysis of the deposited data

How the results depend on the processing

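Of 193 values recomputed under the alternatives, 169 kept their direction and side of the threshold or, for counts, stayed within 1.5 times. Genes called at an adjusted p under 0.05 numbered 33, but 146 without a filter, 5 with at least 10 counts in every library, 1869 with DESeq2 and 0 to 1193 with 1 library left out (0 without control 1, 1193 without control 2). Ligands lower at an adjusted p under 0.05 numbered 0, but 5 with DESeq2 and 0 to 3 with 1 library left out. At an unadjusted p under 0.05 the count of lower ligands was 6, and 4 to 7 over all alternatives. Lower receptors numbered 6, but 2 with at least 10 counts in every library. Of the tested receptors, that filter kept only Ccr2 and Ccrl2, both lower, and it left no value for Ccl3 and Ccl5. Ccl24 changed sign with limma-voom, to -0.021, and ranged from -0.43 to 0.30 with 1 library left out. Ccl7 ranged from -0.45 to 0.79 with 1 library left out. The other ligands kept their sign under all alternatives that gave a value. The cause of the other shifts was not tested. Only 3 mice per group and counts under 25 for Ccl3, Ccl4 and Ccl5 in the aPU.1KO libraries limit precision.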
